A study of Mus musculus with 45 samples.

Results

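Accessibility around 10 genes of the Bcl2 family was described in Ter119+ erythroblasts with and without Stag2. The genes were named one by one: Bcl2, Bcl2l1, Mcl1, Bcl2l2, Bcl2l11, Bad, Bid, Bak1, Bik and Bmf (10 of the 24333 genes in the table), by name and with no threshold on a measured value. All 10 were in the table and all 10 passed the filter on low values in every comparison. The series held 45 samples from Stag2 WT and Stag2 KO (∆) mice, and the 6 used here were the ATAC libraries of sorted Ter119+ erythroblast nuclei made with the 10x multiome kit, 3 from WT and 3 from KO. Both genotypes were sampled between 6 and 8 weeks from the end of dosing with pIpC, a synthetic double-stranded RNA, so the WT mice shared that treatment; what drove the deletion, the number of mice per library and the age of the mice were not given in the sources used here. The Stag2 protein belongs to cohesin, which folds chromatin into loops.

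The Bcl2 family decides at the outer membrane of the mitochondrion whether a cell survives. Guardian proteins (Bcl2, Bcl-xL from Bcl2l1, Mcl1, Bcl-w from Bcl2l2) hold the pore-forming effectors Bak1 and Bax in check, and BH3-only proteins (Bim from Bcl2l11, Bad, Bid, Bik, Bmf) bind the guardians or the effectors and tip the balance towards death. In red cell precursors Bcl-xL is the guardian best known for keeping late, haemoglobin-making cells alive, downstream of erythropoietin and Gata1.

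The measure was the gene score, a sum of ATAC fragments in and around a gene that reads how open its chromatin is and not how much RNA it makes. Each library was averaged over its nuclei and set to a sum of 1000000 over all genes, so a score is a share of that sum. Scores may depend on gene length, so the level of a member was not set against that of another member. Nuclei carried the authors' classes Early, Int and Late and the authors' clusters C1 to C11. Libraries held 4617 to 6990 nuclei, with a median of 7122.5 to 8874 fragments per nucleus, and 753 nuclei repeated a cell barcode already counted in another library. Replicates of a genotype correlated at 0.996 to 0.997 across genes and WT with KO libraries at 0.984 to 0.989. The Stag2 score was 64.2, 65.7 and 65.9 in WT and 61.0, 65.1 and 62.4 in KO; a score over a whole gene cannot show whether an exon is deleted. Of 13 erythroid marker genes measured, 11 were lower and 0 higher in KO (summed score 2837 to 3070 in WT, 2492 to 2691 in KO). Of 9 stem and progenitor markers 5 were higher and 0 lower (80.6 to 101 against 122 to 149). Of 8 myeloid markers 4 were higher (269 to 295 against 296 to 307), of 5 lymphoid markers 2 (88.2 to 94.5 against 100.2 to 110.5), and of 4 megakaryocyte markers 1 was higher and 2 lower (269.9 to 300.4 against 298 to 313). Of all genes 29.1% were called higher and 14.2% lower in KO. In the lowest of 4 equal bins of genes by score (5.00 to 10.6) 41.3% were called higher and 0.565% lower. The median scores of the stem and progenitor (8.68), myeloid (9.14) and lymphoid markers (9.02) lie in that range. No marker of these lists was at 0 in a library. The part of these marker differences in the values below was not tested. Late nuclei made up 65.9%, 51.9% and 42.5% of the WT libraries and 44.8%, 55.2% and 50.9% of the KO libraries. Early nuclei made up 1.49%, 4.04% and 0.286% in WT and 6.38%, 0.541% and 0.325% in KO. Int nuclei of KO came mostly from clusters C10 (43.5%), C8 (29.6%) and C5 (24.6%), and those of WT from C11 (41.0%), C6 (30%), C9 (20.7%) and C5 (7.14%). Late nuclei were 97.3% C2 in KO and 95.5% C3 in WT. A difference between genotypes within a class is therefore also a difference between clusters, and the 2 cannot be told apart outside C5 and C2. No label tied a library to a named animal, so p-values measure the spread between these libraries.

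The start-site sequences of the 3 guardians whose scores moved most are shown first, with that of Bmf, the BH3-only gene that moved most between Int and Late. They are stretches of up to 250 bases before the start site given for the gene, from RefSeq on GRCm38.p6, in 5′ to 3′ direction of the gene; capitals mark CACCC or its reverse complement GGGTG, the letters read by Klf factors. Bcl2 is read from chr1:106714291-106714540 (minus strand), Bcl2l1 from chr2:152831729-152831758 (minus), Bcl2l2 from chr14:54883175-54883365 (plus) and Bmf from chr2:118549687-118549936 (minus). The Bcl2l1 stretch precedes the start in the gene score table and lies within the RefSeq span of the gene, which runs on to 152833803.
Bcl2: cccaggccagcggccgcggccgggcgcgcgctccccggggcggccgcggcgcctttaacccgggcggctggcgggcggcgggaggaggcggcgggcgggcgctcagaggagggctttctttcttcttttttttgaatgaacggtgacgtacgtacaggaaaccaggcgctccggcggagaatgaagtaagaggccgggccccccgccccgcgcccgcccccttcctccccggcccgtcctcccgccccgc
Bcl2l1: gatgccagtccctttctggcgcgcactcct
Bcl2l2: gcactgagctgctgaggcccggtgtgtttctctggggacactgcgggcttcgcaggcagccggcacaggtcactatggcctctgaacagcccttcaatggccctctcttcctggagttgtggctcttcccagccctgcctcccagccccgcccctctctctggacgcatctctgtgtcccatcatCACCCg
Bmf: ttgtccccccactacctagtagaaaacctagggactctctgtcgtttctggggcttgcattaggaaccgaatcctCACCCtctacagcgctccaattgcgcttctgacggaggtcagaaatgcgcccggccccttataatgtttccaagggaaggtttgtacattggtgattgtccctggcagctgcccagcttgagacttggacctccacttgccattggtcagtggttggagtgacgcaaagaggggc
The searches covered both strands of windows of 300 bases at the start sites of 9 of the 10 genes. CACCC stood in the windows of Bcl2l2, Bcl2l11, Bad, Bid and Bmf and in 57.5% of all 32851 windows. The GATA letters AGATAA (likewise TGATAA, next also AGATAG, and finally TGATAG) occurred in 29.8% of all windows and among the members in Bid, whose match on the other strand is in capitals here (chr6:120916851-120916876, minus strand).
Bid: gagggcggggCTATCAcaggggcggg
The STAT letters TTCNNNGAA stood in 8.3% of all windows and in no member's. The 3 sets of letters have no pattern in common, and a match or its lack describes these windows only.

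Bcl2l1 was the member whose score climbed most from Int to Late nuclei, and Bcl2 was the one that fell most. Bcl2l1 lies on the minus strand of chromosome 2 (152758732 to 152831728, mm10). Its score averaged 206 ± 10.1 in Int and 414 ± 26.5 in Late nuclei of WT, and 193 ± 9.51 and 376 ± 13.6 in KO (SD, n = 3 each). Early nuclei stood lower still, at 116 ± 7.37 in 3 WT libraries and 101 ± 18 in the 2 KO libraries with enough nuclei. Early, Int and Late did not overlap within either genotype. Within a library, the Late value exceeded the Int value by 1.07, 1.03 and 0.91 on the log2 scale in WT and by 0.98, 0.95 and 0.95 in KO. All 6 libraries thus moved up by a like amount, and the genotypes overlapped. The estimate was 1.0 (SE 0.035, limma adjusted p = 2.75e-16) in WT and 0.96 (SE 0.035, adjusted p = 5.07e-16) in KO. Over the 19 alternatives it ranged from 0.83 to 1.21 in WT and from 0.76 to 1.15 in KO, and it was past the threshold in all of them. How the classes were made is not given in the sources used here, and they may rest on the same accessibility. The p-values between Late and Int, here and below, thus measure how alike the libraries were and give no independent test of the classes.

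Bcl2, the founding guardian, lies on the minus strand of chromosome 1 (106538176 to 106714290). Its score was 13.5 ± 2.29 in Int and 5.82 ± 0.992 in Late nuclei of WT, and 13.8 ± 0.618 and 8.52 ± 1.41 in KO. Early nuclei had 18 ± 0.773 in WT and 19.2 ± 4.56 in KO. The fall from Int to Late in a library was -1.42, -0.88 and -0.95 in WT and -0.84, -0.37 and -0.72 in KO. Every library fell, and each WT library fell further than each KO library. The estimates were -1.09 (SE 0.13, limma adjusted p = 7.57e-08) in WT and -0.64 (SE 0.13, adjusted p = 0.000102) in KO. Over the 18 alternatives they ranged from -1.19 to -0.55 in WT and from -0.78 to -0.23 in KO. Cyclic loess scaling ended the KO call (-0.23, adjusted p = 0.0759). Bcl2l1 and Bcl2 thus moved in opposite directions in all 6 libraries: their log2 levels had a Pearson r of -0.91 over the 12 class means, which share libraries.

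Among the 10 members 5 were past the threshold between Late and Int in WT (4 higher, 1 lower), against 76% of all 17747 genes, and 6 in KO (3 higher, 3 lower), against 73.4%. Of all genes 27.4% rose and 48.6% fell in WT, and 25.9% and 47.5% in KO. The median of all genes was -0.15 in both genotypes. Bmf, a BH3-only sensor of cytoskeletal stress on chromosome 2 (118528757 to 118549678, minus strand), rose in both: its differences were 0.40, 0.51 and 0.49 with Stag2 and 0.34, 0.49 and 0.38 without it. The 6 libraries moved alike, with estimates of 0.47 (SE 0.058, limma adjusted p = 2.02e-07) and 0.41 (SE 0.058, adjusted p = 1.81e-06). Small rises were called for Bad (0.10) and Mcl1 (0.079) in WT and for Bid (0.17) in KO. Under quantile scaling and cyclic loess Bad and Mcl1 were at -0.019 to -0.063. The Mcl1 call was lost without WT replicate 1 or 2 or KO replicate 3, and the Bid call without KO replicate 2 or 3. In WT Bid (0.044) passed after median centring (0.25) and without WT replicate 2 (0.15). In KO Bad (0.072, adjusted p = 0.0543) passed in 4 alternatives, among them median centring (0.26) and the omission of WT replicate 3. In KO Bcl2l2 fell by 0.44 and Bcl2l11 by 0.18. Quantile scaling ended the Bcl2l2 call (-0.19, limma adjusted p = 0.0566). The Bcl2l11 call was lost without KO replicate 1 (adjusted p = 0.0568), and median centring turned its value to 0.014. Their WT estimates of -0.12 and -0.061 did not pass. Under quantile scaling, however, Bcl2l2 was called higher in WT (0.24, adjusted p = 0.0153). Bcl2l11 was called lower in WT under quantile scaling (-0.14), cyclic loess (-0.15) and without WT replicate 3 (-0.13), and higher after median centring (0.15). Bak1 and Bik were not called in either genotype, with estimates of -0.08 and 0.02 in WT and -0.06 and 0.07 in KO. Bik was called higher in both genotypes under quantile scaling (0.32 in WT, 0.39 in KO), cyclic loess (0.29 and 0.33) and median centring (0.22 and 0.26). In WT Bak1 was called lower under cyclic loess (-0.12), with nuclei weighted by fragments (-0.094), with a standardised mix (-0.11) and without WT replicate 3 (-0.13), and median centring called it higher in both genotypes (0.13 in each). Mcl1 in KO, at 0.026 without a call, was called lower under quantile scaling and cyclic loess (-0.11 in each) and higher after median centring (0.22). Int nuclei had a median of 10121 to 14998 fragments and Late nuclei 5693 to 6812. The part of that gap in these values was not tested. Weighting by fragments and the standardised mix acted within each class, so neither evened out the gap between classes. The calls of Bcl2l1, Bcl2 and Bmf held under both. Scaling mattered for the small values and also for Bcl2, which cyclic loess took to -0.23 in KO with no call. Median centring moved the WT median from -0.15 to 0.06 and raised the calls to 9 of 10 in each genotype, with Bcl2l2 at 0.086 in WT, where it was not called. Calls over all genes were 36.1% higher in WT and 35.3% in KO, against 54.7% and 54.0% under quantile scaling, 50.7% and 51.8% under cyclic loess and 55.3% and 55.4% after median centring.

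**Figure D1:**
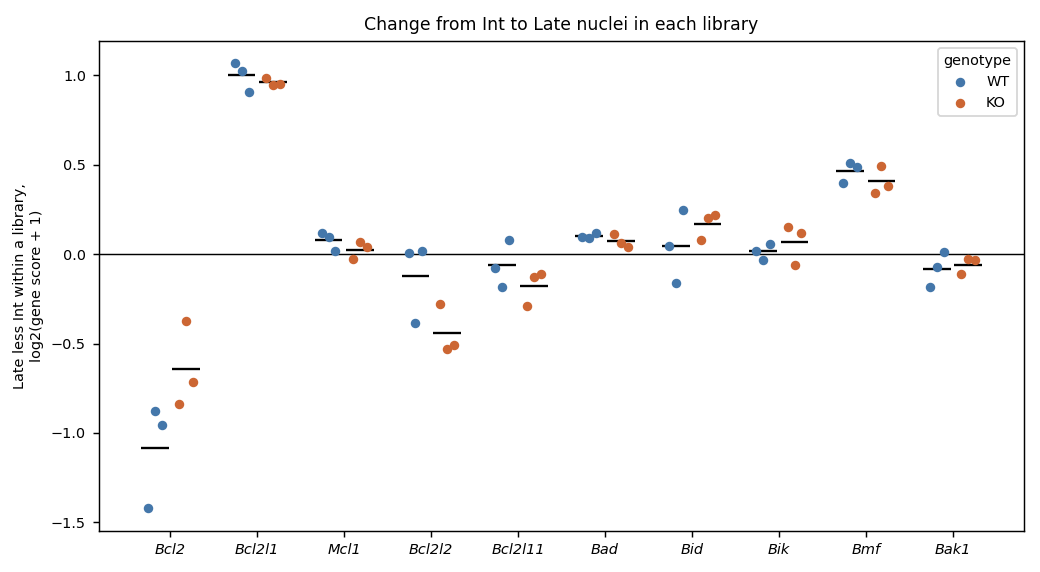
Late less Int on the log2(gene score + 1) scale (vertical axis) for each of the 10 genes, with 1 point per library in blue for WT and orange for KO and a black line at the mean of 3 libraries. Bcl2l1 sits near 1 and Bcl2 below 0 in all 6 libraries, and the WT and KO points of Bcl2 do not overlap.

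Over all nuclei, loss of Stag2 went with more accessibility at Bcl2l2, Bak1 and Bad and less at Mcl1. These 4 of 10 members were past the threshold (3 higher, 1 lower), beside 43.3% of all 17682 genes (29.1% higher, 14.2% lower), so the share among the members is near that of all genes. In Int nuclei 3 members were called (2 higher, 1 lower), beside 19.8% of genes (12.7% and 7.1%). In Late nuclei 7 were called (4 higher, 3 lower), beside 51.4% (32.9% and 18.5%). The balance depended on the scaling. Over all nuclei median centring gave 1 higher and 5 lower, with Bcl2l1 (-0.30), Bcl2l11 (-0.23) and Bid (-0.26) among the calls. Quantile scaling and cyclic loess each gave 3 higher and 1 lower but kept 3 of the 4 calls. Under both, Bik was the lower call in place of Mcl1. In Int nuclei median centring gave 1 higher and 2 lower, quantile scaling 2 and 2 and cyclic loess 3 and 1. In Late nuclei quantile scaling gave 2 higher and 2 lower, cyclic loess 2 and 1 and median centring 2 and 3. The median log2 change of the 10 members was 0.016, -0.0014 and 0.024 in the 3 comparisons and that of all genes 0.096, 0.057 and 0.052. Groups did not overlap for 6 members over all nuclei, 5 in Int and 6 in Late nuclei, beside 55.4%, 37.3% and 59.5% of genes. These comparisons share libraries, and Int and Late nuclei are most of all nuclei.

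Bcl2l2, the gene of Bcl-w, changed most over all nuclei and in Int nuclei. It lies on the plus strand of chromosome 14 (54883425 to 54888234). Over all nuclei its score was 15.2, 16.5 and 16.7 in WT and 27.2, 22.5 and 23.6 in KO. Each KO library stood above each WT library, and the log2 change was 0.56 (SE 0.096, limma adjusted p = 0.000213). In Int nuclei the values were 14.8, 17.8 and 16.6 in WT and 27.9, 27.2 and 27.9 in KO, which is 0.73 higher on the log2 scale (SE 0.11, limma adjusted p = 1.33e-05). The 3 KO libraries were nearly equal there and far above the WT range. In Late nuclei the values were 14.9, 13.4 and 16.8 against 22.9, 18.5 and 19.3, or 0.41 higher (SE 0.10, limma adjusted p = 0.00442), again with no overlap. Early nuclei, which were not tested, had 42.8 ± 3.34 in WT and 42.4 ± 13.6 in KO (n = 3 and 2). In WT the Int and Late levels lay within each other's spread, both well under Early, while in KO the order was Early, Int, Late with Int and Late apart. The call held in all 18 alternatives for all nuclei, with estimates from 0.33 to 0.62, and for Int nuclei, with 0.54 to 0.78. In Late nuclei it held in 15 of 17. Quantile scaling (0.17, limma adjusted p = 0.196) and cyclic loess ended it there.

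Bcl2 differed between genotypes in Late nuclei. Its Late scores were 5.23, 6.97 and 5.26 in WT and 7.65, 10.1 and 7.76 in KO. KO stood above WT throughout, by 0.48 (SE 0.13, limma adjusted p = 0.00819). Int values were 15.7, 13.6 and 11.1 against 14.5, 13.4 and 13.4, which overlapped (0.038, adjusted p = 0.877). Over all nuclei the change was 0.27 (adjusted p = 0.0622), with every KO library above every WT library; quantile scaling turned it to -0.0032 (adjusted p = 0.979), and 3 of 17 alternatives, among them the omission of WT replicate 2, brought it past the threshold. Bcl2 was in the lowest of 4 equal bins of genes by score in Late nuclei, where the median change was 0.33 and 57.3% of genes were called higher; the part of that trend in the Bcl2 value was not tested. In Late nuclei quantile scaling gave 0.13 (limma adjusted p = 0.450), and cyclic loess 0.13 (adjusted p = 0.464).

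Bcl2l1 and Mcl1 went the other way in Late nuclei. Bcl2l1 scored 445, 398 and 400 in WT and 361, 385 and 384 in KO. Every KO library was below every WT library, by a small margin, with a change of -0.14 (SE 0.046, limma adjusted p = 0.0238). In Int nuclei (211, 195 and 213 against 182, 199 and 198) the groups overlapped and the change of -0.096 did not pass. Mcl1, a short-lived guardian on chromosome 3 (95658721 to 95663179, plus strand), scored 181, 171 and 161 in WT and 149, 152 and 162 in KO in Late nuclei. The highest KO value lay just above the lowest WT value, and the estimate was -0.14 (SE 0.050, limma adjusted p = 0.0263). Over all nuclei Mcl1 fell by 0.12 (adjusted p = 0.0424). That call was lost in 10 of 18 alternatives, among them quantile scaling, cyclic loess and weighting by fragments. The omission of WT replicate 1 or 2 or of KO replicate 1 or 2 also ended it (limma adjusted p up to 0.171). The same 4 omissions ended the call in Late nuclei, as did quantile scaling, cyclic loess and a fit with no variance trend. For Bcl2l1 in Late nuclei 4 of 18 ended the call. These were cyclic loess, no variance trend and the omission of WT replicate 1 or KO replicate 1 (limma adjusted p up to 0.112). Over the omissions of 1 library the Bcl2l1 value ran from -0.17 to -0.085. The highest of 4 equal bins of genes by score, which holds both, had a median of -0.062 in Late nuclei. Over all nuclei Bcl2l1 was at -0.16 without passing (adjusted p = 0.0879). Without WT replicate 1 it was at -0.057 and without KO replicate 1 at -0.092, while it passed without WT replicate 2 (-0.20) or 3 (-0.21), and 5 of 18 alternatives in all brought it past the threshold. WT replicate 1 had the largest share of Late nuclei in WT (65.9%) and KO replicate 1 the smallest in KO (44.8%). The part of these shares was not tested by itself. The standardised mix, under which Bcl2l1 passed, also evened fragment counts and left out Early nuclei.

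**Figure D2:**
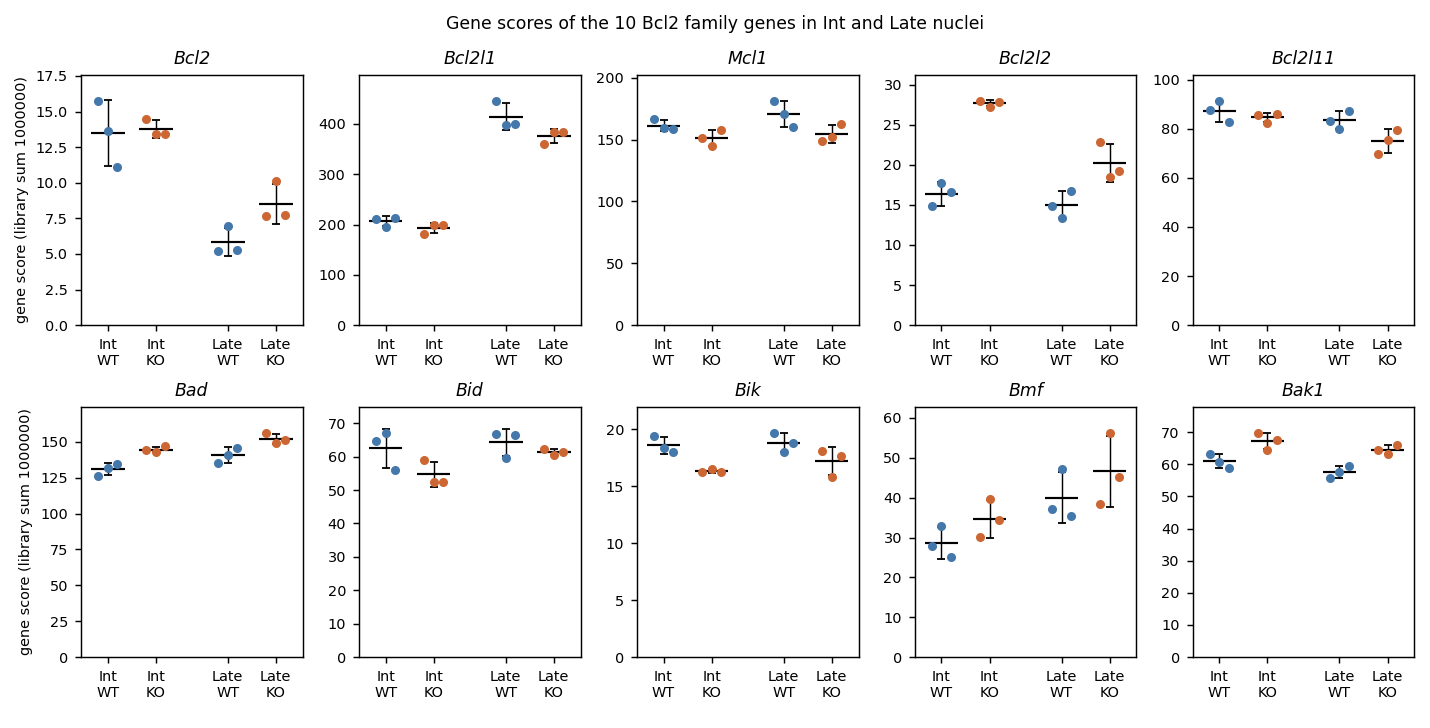
Gene scores (vertical axis, each library at a sum of 1000000, axes from 0 and different for each gene) of the 10 genes in Int and Late nuclei, with 1 point per library, WT in blue and KO in orange; the line and bar are the mean and SD of 3 libraries. Bcl2l2 separates the genotypes in both classes (27.2 to 27.9 in KO against 14.8 to 17.8 in WT in Int nuclei), while Bcl2 separates them in Late nuclei.

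Bak1, one of the pore-forming effectors, lies on the minus strand of chromosome 17 (27019812 to 27028626). Over all nuclei it scored 58.3, 60.0 and 59.1 in WT and 68.7, 63.9 and 66.8 in KO. KO stood above WT throughout, by 0.17 (SE 0.048, limma adjusted p = 0.0109). Late nuclei gave 55.6, 57.7 and 59.3 against 64.4, 63.2 and 65.9, a change of 0.16 (adjusted p = 0.0153). In Int nuclei the groups were also apart (58.8 to 63.1 against 64.5 to 69.6), but the change of 0.14 did not pass (adjusted p = 0.0715), except under cyclic loess (0.15, adjusted p = 0.0408). Median centring took the all-nuclei value to 0.020 (adjusted p = 0.821), and the omission of KO replicate 1 or weighting nuclei by fragments also ended that call. Omission of WT replicate 1 ended the Late call (limma adjusted p = 0.0534), as did median centring (0.098, adjusted p = 0.141). Bax, the other effector, was not called (172.6, 168.6 and 175.9 against 158.6, 170.9 and 162.5; -0.072, adjusted p = 0.175).

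Of the BH3-only genes Bad moved in each comparison by a small amount. Bad, which growth-factor signals silence by phosphorylation, lies on the plus strand of chromosome 19 (6941861 to 6951905). It scored 132, 136 and 139 in WT and 147, 146 and 149 in KO over all nuclei. Every KO library was above every WT library (0.12, SE 0.041, limma adjusted p = 0.0270), as they were in Int (0.14, adjusted p = 0.0312) and Late nuclei (0.11, adjusted p = 0.0383). The call was fragile. The omission of any KO replicate or of WT replicate 1 or 2 ended it over all nuclei and in Late nuclei, that of any KO replicate or of WT replicate 1 ended it in Int nuclei, and median centring turned the value to -0.028 over all nuclei and to -0.034 in Int nuclei.

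Bid links the death receptors to the mitochondrion once caspase 8 cuts it. The gene lies on the minus strand of chromosome 6 (120893119 to 120916820). Int nuclei scored 64.6, 67.0 and 55.9 in WT and 59.1, 52.5 and 52.5 in KO. WT replicate 3 lay within the KO range, and the fall of -0.19 passed narrowly (SE 0.066, limma adjusted p = 0.0437). It was lost in 9 of 18 alternatives, among them cyclic loess. The omission of WT replicate 1 or 2 or of KO replicate 2 or 3 also ended it (limma adjusted p up to 0.146). In Late nuclei the change was -0.064 (adjusted p = 0.340), and over all nuclei -0.11 (adjusted p = 0.0882). That all-nuclei value passed in 4 of 18 alternatives: median centring (-0.26), the standardised mix (-0.14) and the omission of WT replicate 3 (-0.15) or KO replicate 1 (-0.16).

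Bim is a BH3-only protein that can bind all the guardians. Its gene Bcl2l11, on the plus strand of chromosome 2 (128126038 to 128162547), fell in Late nuclei from 83.2, 80.0 and 87.2 in WT to 69.7, 75.4 and 79.5 in KO. The groups were just apart (-0.16, SE 0.055, limma adjusted p = 0.0300), and 7 of 18 alternatives ended the call. These were quantile scaling, cyclic loess, no variance trend and the omission of WT replicate 1 or 3 or of KO replicate 1 or 2. Bik, on the plus strand of chromosome 15 (83526862 to 83544635), passed in none of the 3 comparisons. It scored 19.7, 18.7 and 18.4 in WT and 17.9, 16.2 and 17.1 in KO over all nuclei (-0.15, limma adjusted p = 0.205), with the groups apart. Bik was called lower over all nuclei under quantile scaling (-0.40, adjusted p = 0.000908), cyclic loess (-0.36) and median centring (-0.29), under the same 3 in Int nuclei (-0.35 to -0.38), and under quantile scaling (-0.36) and cyclic loess (-0.30) in Late nuclei. Bmf scored 34.1, 40.7 and 29.5 against 34.9, 48.8 and 39.9 (0.24, adjusted p = 0.0799), and the groups overlapped. Without WT replicate 2 or KO replicate 1 Bmf passed in all 3 comparisons (0.33 to 0.37). Without KO replicate 2 it was at 0.11 over all nuclei, 0.17 in Int and 0.070 in Late nuclei, and without WT replicate 3 at 0.13, 0.18 and 0.13, with no call. Replicate 2 of each genotype was the highest for Bmf in Int, Late and all nuclei.

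**Figure D3:**
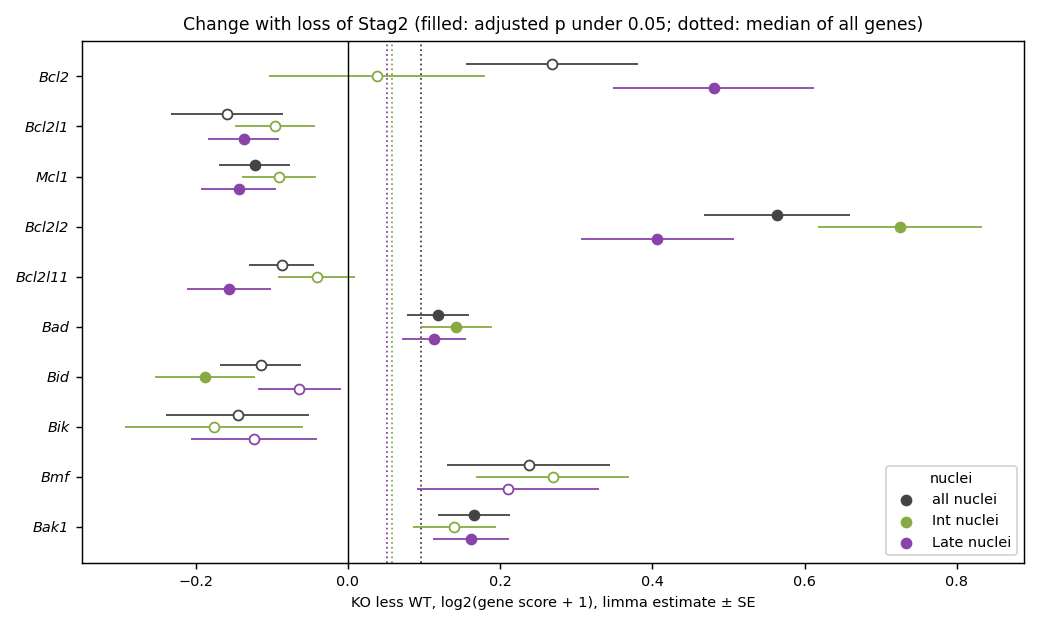
Estimated change in KO against WT (horizontal axis, log2(gene score + 1), point ± SE) for the 10 genes over all nuclei (grey), Int (green) and Late nuclei (purple); filled points passed an adjusted p of 0.05 in limma, and dotted lines mark the median of all genes tested. Bcl2l2 stands farthest to the right in all nuclei (0.56) and in Int nuclei (0.73), and Bcl2 in Late nuclei (0.48).

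The KO effect was not shown to differ between Late and Int nuclei for any member. In limma 0 of 10 passed that test, beside 7.49% of 17747 genes (5.35% higher, 2.14% lower), and 2 of the 10 had an unadjusted p under 0.05. These were Bcl2 (0.44, SE 0.18, adjusted p = 0.14) and Bcl2l2 (-0.32, SE 0.13, adjusted p = 0.154). Bcl2l2 passed under quantile scaling and without WT replicate 2 (adjusted p down to 0.0463). Bid passed without WT replicate 3 (adjusted p = 0.0408). With the variance trend taken on the mean difference in place of the mean level, a choice made after the data were seen, 28 genes passed in place of 1329, and again no member.

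Direction of change followed the score of a gene across the whole table, a score that may also depend on gene length. Over all nuclei the median change was 0.26 and 0.24 in the 2 lower of 4 equal bins of genes by score and -0.022 and -0.071 in the 2 higher. Bcl2 (0.27) lay at the median of its bin. Bcl2l2 (0.56) stood above its bin (0.24), Bik (-0.15) stood below the same bin, and Bak1 (0.17) and Bmf (0.24) stood above theirs (-0.022). Bad (0.12) stood above a bin at -0.071, in which Bcl2l1 (-0.16) and Mcl1 (-0.12) also lie. The share of called genes that were higher in KO was 67.1% over all nuclei and 46.9%, 54.0% and 35.4% under quantile scaling, cyclic loess and median centring. In Int nuclei it was 64.2% against 50.7%, 57.5% and 24.4%, and in Late nuclei 64.0% against 46.5%, 52.5% and 47.9%. Median centring moved the median of all genes from 0.096 to -0.05 over all nuclei.

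The 9 larger clusters, without genotypes that made up under 10% of one, gave a finer order of levels, as a description, since clusters were made from the same nuclei and most hold 1 genotype. Bcl2l1 was lowest in C7, which holds the Early nuclei (116 in WT, 99.3 in KO). It was 175 in C9 (WT) and 178 in C8 (KO), 193 and 191 in C5, 206 in C10 (KO), 214 in C11 (WT) and 241 in C6 (WT). C3 (WT) and C2 (KO) stood highest, at 418 and 376. Library ranges of C9 with C8 and of C10 with C11 overlapped; those of C6 and C3 lay apart from each other and from C11. Bcl2 was near 12.4 to 16 in C9, C8, C5, C10 and C11, whose library ranges overlapped except those of C8 and C10, and 5.31 ± 0.287 in C3 against 8.35 ± 1.09 in C2. Bcl2l2 was 30.9 ± 0.539 in C8 and 27.3 ± 1.58 in C10, the KO clusters, and 19.6 ± 2.75 in C9, 14.5 ± 1.03 in C11 and 15.9 ± 2.01 in C6, the WT clusters. The KO and WT libraries of these clusters did not overlap.

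C5 and C2 could be tested, with at least 50 nuclei in every library. In C5 (628 WT and 1698 KO nuclei) 1 of 10 members was called, beside 0.89% of 19438 genes (0.412% higher, 0.478% lower): Bid scored 74.9, 87.8 and 75.5 in WT and 48.5, 40.4 and 40.6 in KO. The groups were far apart (2 members did not overlap, beside 19.6% of genes), and the fall of -0.86 (SE 0.14, limma adjusted p = 0.0193) was the largest change of any member between genotypes that passed. Omission of WT replicate 2 or of any KO replicate ended the call (adjusted p up to 0.155), as did a fit with no variance trend (adjusted p = 0.167), with the estimate between -0.95 and -0.63 over all 18 alternatives; the omissions left 8 to 329 calls over all genes in place of 173. Median fragments per C5 nucleus were 3909 to 4163 in WT and 4745 to 5033.5 in KO. In WT nuclei Bid averaged 79.4 in C5, beside 90.2 in C9, 64.6 in C3, 52.2 in C11 and 50.4 in C6. In KO nuclei it averaged 43.2 in C5, beside 72.6 in C8, 61.7 in C2 and 48.7 in C10. Bcl2l2 in C5 was 10.5, 24.6 and 13.7 against 20.8, 22.7 and 30.1 and did not pass (0.63, SE 0.30, adjusted p = 0.389). In C2 limma called 0 of 10 members and 0 of 17360 genes, with 2190 genes at an unadjusted p under 0.05. Its 58 to 68 WT nuclei per library had a median of 1919.5 to 2258.5 fragments against 6091.5 to 6594 in KO, and WT values of Bcl2 there ran from 0.563 to 77.2. Groups did not overlap in C2 for 2 members, beside 25.8% of genes.

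**Figure D4:**
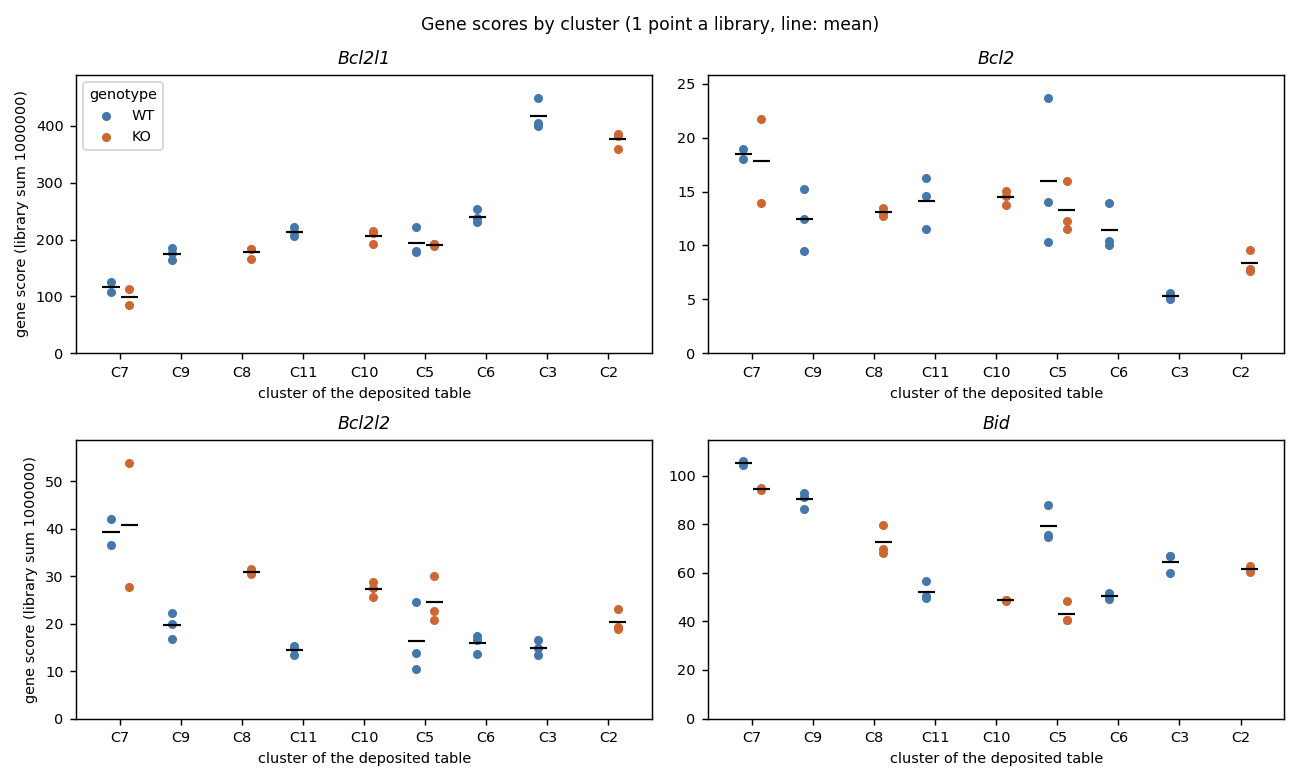
Gene scores (vertical axis, each library at a sum of 1000000) of Bcl2l1, Bcl2, Bcl2l2 and Bid by cluster of the deposited table, with 1 point per library of at least 20 nuclei, WT in blue, KO in orange and a line at the mean. Genotypes with under 10% of a cluster's nuclei and the small clusters C1 and C4 are left out; Bcl2l1 is highest in C3 (418) and C2 (376), and Bid in C5 is 79.4 in WT and 43.2 in KO.

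Neighbouring genes share fragments in a gene score, so the genes starting within 100 kb were read beside each member. Over all nuclei Bcl2l2 had 9 tested neighbours, of which 2 were called higher and 0 lower, beside 29.1% and 14.2% of all genes. Ppp1r3e, whose start lies 5.9 kb before that of Bcl2l2, rose by 0.61 (limma adjusted p = 4.49e-07) beside 0.56 for Bcl2l2, and by 0.67 and 0.57 in Int and Late nuclei. Pabpn1, 10.7 kb after it, did not pass (-0.080). Bak1 had 9 tested neighbours and Bid, Bmf and Bcl2 2 each, with no call among them. The spans of Ggnbp1 and Zbtb9 both contain Bak1. Ggnbp1 was at 0.12 (limma adjusted p = 0.0527) and Zbtb9 at -0.0066, beside 0.17 for Bak1. Mcl1 had 3 higher and 2 lower of 7, with Ecm1 at 0.61. Bad had 2 higher of 17, with Ccdc88b at 0.32, and Gpr137, which starts 0.6 kb from Bad on the other strand, at 0.10 without passing. Bik had 3 lower of 5 and Bcl2l1 1 higher and 1 lower of 5. Bcl2l11 had no tested neighbour. From Int to Late nuclei the neighbours of Bcl2l1 moved both ways. Cox4i2, which overlaps the far end of Bcl2l1, rose by 0.90 in WT and 0.99 in KO, and Id1 by 0.64 and 0.82. Tpx2 (-0.13 and -0.23), Mylk2 (-0.42 and -0.36) and Mir5622 (-1.70 and -2.03) fell. Beside Bmf, Srp14 rose by 0.73 and 0.72, and Bub1b was at -0.12 and -0.16. The part of shared fragments in these values was not tested. In C5 Bcl2l13, which starts 80.6 kb from Bid, was at 0.041 where Bid was at -0.86.

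Likeness of pattern was measured as Pearson r of log2 levels over the 12 class means (Int and Late in 6 libraries), with genes over 1 Mb away. The gene most like Bcl2l1 was Lpin2 (0.997) and that most like Bcl2 was Prkch (0.992), but 1729 and 3099 genes passed 0.9, since the step from Int to Late sets most of these points. For Bcl2l2 it was Gng8 (0.971, with 142 genes over 0.9), for Bak1 Rab12 (0.977), for Bad A230020J21Rik (0.972), for Mcl1 Cep57l1 (0.961) and for Bcl2l11 Hbs1l (0.943). Bid (Mir3076, 0.924), Bik (Eif3m, 0.924) and Bmf (Gm13710, 0.916) had 1, 2 and 3 genes over 0.9.

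The rest of the death pathway was read from lists. Of 17 other genes of the Bcl2 family and its binding partners 12 were tested over all nuclei. In KO 2 were higher and 0 lower, beside 29.1% and 14.2% of all genes. These were Pmaip1, the gene of the BH3-only protein Noxa (0.48, limma adjusted p = 0.00473), and Bnip3 (0.31, adjusted p = 0.00101), a mitophagy receptor. Each of the 3 scalings kept 1 of these 2 calls, and median centring gave 1 higher and 7 lower. Pmaip1 had mean scores of 6.49 in WT and 9.47 in KO, close to the filter at 5. In that lowest bin of genes by score the median change was 0.26 and 41.3% of genes were called higher. Bbc3, the gene of Puma, and Bnip3l, which clears mitochondria from reticulocytes, did not pass (0.046 and -0.071). From Int to Late nuclei Bnip3l rose by 0.75 in WT and 0.76 in KO, Bax rose by 0.34 in each, and Pmaip1 fell by 1.44 in WT and 0.81 in KO.

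A list of caspases, apoptosome genes and proteins of the mitochondrion (among them Casp8, which acts before Bid, and the channels Vdac1, Vdac2 and Vdac3) had 1 of 17 genes higher and 7 lower over all nuclei, with a median of -0.085, beside 29.1% and 14.2% of all genes. In Late nuclei 2 were higher and 8 lower, beside 32.9% and 18.5%. Of these 10 Late calls quantile scaling and cyclic loess each kept 3, with 0 higher and 4 and 3 lower, and median centring kept 9 (1 higher, 9 lower). Casp6 fell by 0.43 (28.7, 25.8 and 25.0 in WT against 20.4, 17.7 and 19.97 in KO; limma adjusted p = 0.00123). All 3 KO libraries were below the WT range for Casp6. Vdac3, a channel of the outer mitochondrial membrane, fell by 0.19 and the initiator Casp9 by 0.18. Endog, a mitochondrial nuclease, rose by 0.36, with mean scores of 12.3 in WT and 16.1 in KO. Its bin of genes by score had a median change of 0.24. Apaf1, the scaffold of the apoptosome, did not pass (-0.014). Over all nuclei, under quantile scaling and under cyclic loess, 5 of the 17 were lower and 0 higher, and each kept 4 of the 8 calls. Median centring gave 1 higher and 12 lower and kept all 8. None of the 8 called genes turned sign under the 3 scalings.

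Of 6 tested inhibitors of apoptosis 0 were higher and 1 was lower over all nuclei, beside 29.1% and 14.2% of all genes. This was Birc2 (-0.16, limma adjusted p = 0.00728), and cyclic loess ended that call. Of 5 tested genes of the death receptor pathway 3 were higher and 1 lower, beside the same shares. Fas was the only receptor tested among them. The adaptor Fadd scored 32.1, 34.0 and 26.8 in WT and 48.6, 44.8 and 45.7 in KO. KO stood above WT throughout, by 0.57 (SE 0.077, limma adjusted p = 2.20e-05) over all nuclei and 0.58 in both Int and Late nuclei. Fas rose by 0.36, Tradd by 0.23 with overlapping groups, and Ripk1 fell by 0.24. Fas had mean scores of 5.19 in WT and 6.97 in KO, in the lowest bin, where the median change was 0.26. Under each of the 3 scalings 2 of the 4 calls of this list were kept, and none turned sign.

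Of 15 upstream regulators 1 was higher and 3 lower over all nuclei, beside 29.1% and 14.2% of all genes. Of these 4 calls 2 were kept under quantile scaling and 2 under cyclic loess, and median centring gave 1 higher and 8 lower. Akt1, the kinase that silences Bad, rose by 0.48 (limma adjusted p = 0.000265). Epor, the erythropoietin receptor, scored 164, 155 and 157 in WT and 133, 128 and 140 in KO. Each KO library was below each WT library (-0.25, SE 0.044, adjusted p = 0.000322). Gata1 fell by 0.17 and E2f1 by 0.16, while Stat5a and Stat5b, which carry the erythropoietin signal, did not pass (0.082 and 0.061).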

How the data were processed

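Single-nucleus ATAC libraries of Ter119+ erythroblasts, 3 Stag2 WT and 3 KO, were read from the authors' deposited tables. The gene score is a signal per gene and nucleus that the deposited table holds scaled to a sum of about 10000 per nucleus (9999.86 to 10000.1 when checked); 25.2% of values were above 0. The submitters' processing notes name Cell Ranger and mm10; how fragments were weighted, and how clusters and classes were made, is not given in the sources used here. The deposited table of 34073 nuclei lists each nucleus 2 times and holds the count of fragments, a score for doublets and one for enrichment at start sites, a nucleosome ratio, and the cluster and class; per the file headers. The lowest count was 1000 fragments.

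For each library the mean score of its nuclei was taken, set to a sum of 1000000, filtered at a mean of 5 and compared as log2(score + 1) with limma 3.58.1 in R 4.3.3 (lmFit, eBayes with trend, two-sided, Benjamini-Hochberg over all genes tested, threshold 0.05). That scale understates changes of low genes. Late and Int nuclei were compared as differences within a library, in 1 fit with both genotypes, with the trend on mean level. A set of nuclei was fitted with at least 50 nuclei in every library; levels are given for libraries with at least 20. An exact permutation test of 3 against 3 cannot go below 0.1, so every call rests on the spread that limma shares between genes. The procedure was also run on simulated data in which the noise depended only on the score level. That run held no shift of scale, so it does not bear on the choice of scaling. Doublets were treated only as an alternative, by leaving out the 5% of nuclei with the highest doublet scores. The other alternatives were the pseudocount, the filter, 3 scalings, no variance trend, weighting by fragments, a standardised mix of classes and fragment counts, a replicate block and leaving out each library. Over all nuclei the standardised mix used Int and Late nuclei only, and within a class or cluster it evened fragment counts only.

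The members and lists were chosen with earlier results of these data known. Named besides the members were, from each list, up to 3 genes with the largest rise and 3 with the largest fall past the threshold over all nuclei, 11 genes always given, 1 neighbour of each called member and the gene most like each member; other neighbours were named after their values were seen. Of the genes so chosen, 2 are not reported here. Sequences are RefSeq's on GRCm38.p6; 23863 of the symbols were found there, 23856 on the same chromosome, and 91.1% of left ends lay within 1000 bases. Python 3.11.15, numpy 2.4.6, pandas 2.3.3 and matplotlib 3.10.9 were used. The RNA, CUT&RUN and HiC samples and the ATAC samples of stem and progenitor cells were not analysed here.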

Additional observations from a re-analysis of the deposited data

Results flagged for a closer look

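In the limma test of whether the KO effect differed between Late and Int nuclei, 7.49% of all genes passed. Among the pathway genes 1 of 12 other genes of the Bcl2 family and its binding partners passed, and 1 of 7 inhibitors of apoptosis. On the other lists 0 of 17 caspase and apoptosome genes, 0 of 5 genes of the death receptor pathway and 0 of 15 upstream regulators passed. Pmaip1 fell from Int to Late by 1.44 in WT and by 0.81 in KO, a difference of 0.64 (SE 0.19, adjusted p = 0.0383). Xiap, an inhibitor of caspases named here after its values were seen, fell by 0.87 in WT and by 1.23 in KO, a difference of -0.36 (SE 0.11, adjusted p = 0.0415). Neither passed with the variance trend taken on the mean difference, a choice made after the data were seen (limma adjusted p = 0.121 for Pmaip1 and 0.167 for Xiap), nor with no variance trend (0.106 and 0.0893). The Pmaip1 call was lost in 11 of 18 alternatives, among them quantile scaling and cyclic loess, and the Xiap call in 10 of 19, among them cyclic loess. Omission of WT replicate 1 or 2 or of any KO replicate ended both calls (adjusted p up to 0.221 and 0.167). Over these alternatives the difference ran from 0.33 (with a pseudocount of 5) to 0.80 for Pmaip1 and from -0.47 to -0.29 for Xiap. Pmaip1 has a low score and was not tested with the filter at a mean of 20.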

How the results depend on the processing

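The counts of members past the threshold moved by over 1.5 times in these cases. Over all nuclei the main 4 became 1 with nuclei weighted by fragments and 7 with the mix of classes and fragment counts standardised. Int nuclei had 1 in place of 3 without a variance trend. Late nuclei had 4, 3 and 3 in place of 7 under quantile scaling, cyclic loess and no variance trend. C5 had 0 in place of 1 without a variance trend. Late against Int in WT had 9 and 3 in place of 5 after median centring and without a variance trend, and the difference of KO effects had 1 in place of 0 under quantile scaling. Leaving out 1 library gave 2 to 6 over all nuclei, 1 to 3 in Int, 2 to 6 in Late, 0 to 1 in C2, 0 to 1 in C5 and 0 to 1 for the difference of KO effects.

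Over all genes, a filter at 20 left 4244 calls over all nuclei, 4560 in Late nuclei, 7886 and 7814 for Late against Int in WT and KO and 601 for the difference of KO effects, since fewer genes were tested. Weighting by fragments gave 2415 over all nuclei, and no variance trend 1921 in Int nuclei, 54 in C2, 1 in C5 and 430 for the difference, which was 741 under quantile scaling and 28 with the trend on the mean difference. No filter gave 1495 in C2 and 115 in C5. Omissions gave 2547 to 4782 in Int nuclei, 0 to 1161 in C2, 8 to 329 in C5 and 375 to 2700 for the difference. The cause was not tested.

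Signs turned as follows. Bcl2 was at -0.0032 over all nuclei under quantile scaling, and in Int nuclei at -0.16 (quantile), -0.13 (loess), -0.14 (median centring), -0.015 (standardised mix) and -0.084 to 0.15 over omissions. Median centring turned Bad (-0.028 over all nuclei, -0.034 in Int) and Bak1 (-0.036 in Int). In C2, Bcl2l11 was at 9.15e-05 with a pseudocount of 0.5, 0.23 weighted by fragments and -0.40 to 0.39 over omissions; Bcl2l1 at -0.027 after median centring and -0.045 to 0.18 over omissions; Bik at 0.013 weighted and -0.37 to 0.14 over omissions; Bmf -0.00475 to 1.28 and Bcl2 -1.66 to 1.16 over omissions. In C5, Bcl2l1 was at 0.034 (quantile), 0.022 (loess), 0.019 (standardised mix) and -0.065 to 0.097 over omissions, Bmf at 0.058 weighted and -0.32 to 0.053 over omissions, and Bcl2 -0.45 to 0.12 over omissions. For Late against Int in WT, quantile scaling and loess gave -0.063 and -0.062 for Mcl1, 0.24 and 0.13 for Bcl2l2 and -0.019 and -0.031 for Bad; median centring gave 0.086 for Bcl2l2, 0.15 for Bcl2l11 and 0.13 for Bak1. Bik was at -0.044 weighted and -0.0016 in the standardised mix. Omissions gave -0.19 to 0.011 for Bcl2l2, -0.13 to 0.00136 for Bcl2l11, -0.00619 to 0.038 for Bik and -0.058 to 0.15 for Bid. In KO, quantile scaling and loess both gave -0.11 for Mcl1 and -0.055 for Bad, and median centring 0.014 for Bcl2l11 and 0.13 for Bak1. For the difference of KO effects, Bmf was at 0.018 (quantile), Bad at 0.00031 (weighted) and Bak1 -0.028 to 0.070 over omissions.

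Replicate numbers were not taken to pair the libraries: same-numbered WT and KO deviations correlated at -0.12, -0.27 and 0.21 over all nuclei, 0.13, -0.084 and 0.19 in Int and 0.087, 0.045 and 0.051 in Late nuclei. In Late nuclei each library correlated best with its own number, a hint from the data and not from the design. With a replicate block 6 members passed over all nuclei, 4 in Int, 7 in Late, 0 in C2, 1 in C5, 5 and 6 for Late against Int and 0 for the difference; Bcl2l1 (-0.16) and Bmf (0.24) over all nuclei joined the calls, as did Bmf in Int (0.27) and Late nuclei (0.21), where Bad left them (adjusted p = 0.0608). The standardised mix was not run in C2, where a stratum was empty. C2 had as few as 58 nuclei in a library and C5 143. Over all nuclei the SE was 0.11 for Bcl2, a low score, and 0.041 for Bad.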
